A study of Mus musculus with 12 samples.

Results

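This section describes the 6 cortex libraries of a series of 12, the 3 titled CD51+ against the 3 titled CD51-, in which RNA was sequenced from cells of mouse cortex sorted by flow cytometry. Libraries were chosen by their titles alone, and every gene that passed a filter on low counts entered the comparison, 12613 of 55401. All mice were CD51-Flp; Rosa-CAG-FSF-tdTomato. The CD51-Flp allele makes Flp recombinase where the gene of CD51 is used, and the reporter allele at Rosa makes tdTomato from the CAG promoter once Flp has removed a stop cassette. The CD51+ group was sorted as tdTomato and GFP positive and the CD51- group as GFP positive without tdTomato, so both groups carried the same alleles and the same GFP gate. The sources used here do not give what drove GFP, the age of the mice, any treatment, or whether replicates were separate animals. The p-values therefore measure the spread between these libraries, which may be technical. Removal of a stop cassette is permanent, so tdTomato marks cells that used the CD51 gene at some time and not only at the sort. Library names read G where the title has CD51+ and GT where it has CD51-. Read as GFP, and as GFP with tdTomato, they would name the reverse of the titles. If the titles are the wrong way round, every difference below changes sign.

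Astrocytes are the glia that clear glutamate and GABA from synapses, buffer potassium and water, and supply neurons with cholesterol and lactate. Microglia are the resident macrophages of the brain and depend on the receptor Csf1r, while oligodendrocytes wrap axons in myelin. CD51 is the integrin alpha-v chain, encoded by Itgav, which pairs with several beta chains and with Itgb8 activates latent TGF-beta.

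Each CD51+ library held 5500545 to 12847183 counted read pairs and each CD51- library 7092606 to 8537573, over 12113 to 13767 genes with any count. Mitochondrial genes made up 36.5% to 71.1% of counts in CD51+ and 22.5% to 38.6% in CD51-. CD51+ replicate 3 stood apart: mitochondrial ribosomal RNA took 58.4% of its counts, against 1.11% to 3.54% in the other 5. Replicates differed widely. CPM here are counts per 1000000 of the TMM-adjusted library size, so those of a library need not sum to 1000000. Among genes with a mean of at least 100 CPM, the highest of the 3 libraries was a median 2.30-fold above the lowest in CD51+ and 2.53-fold in CD51-, after adding 1. Xist, the X-inactivation transcript, was at 1134, 589.8 and 1122 CPM in CD51+ and 2866, 3566 and 1413 in CD51-, while the Y-linked Uty was at 47.7 CPM in CD51- replicate 3 and at most 0.169 in the other 5. Ddx3y, also Y-linked, was at 56.7 CPM in CD51- replicate 3, 19.8 in CD51+ replicate 2 and at most 2.85 in the other 4. The part of these differences between libraries in the results was not tested.

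Itgav (ENSMUSG00000027087.11, chromosome 2, 83724397 to 83806916, plus strand; mm10) did not separate the labelled groups. It stood at 337, 537 and 879 CPM in the CD51+ libraries and 358, 248 and 326 CPM in the CD51- libraries. The lowest CD51+ library lay below the highest CD51- library, so the groups overlapped. It changed by 0.91 ± 0.55 (SE) on the log2 scale, with an edgeR adjusted p of 0.269. By a two-sided exact permutation test p was 0.2, where 3 against 3 libraries cannot go below 0.1. Measured per unit of pan-astrocyte marker RNA, Itgav was lower in CD51+, at -2.58 (edgeR adjusted p = 0.00627), where 38.6% of all genes were called lower and their median was -3.41. Per unit of microglial marker RNA it was higher, at 5.37 (edgeR adjusted p = 0.00076), where 44.6% of all genes were called higher and the median was 4.35. This is a count of mRNA, and neither the surface protein nor the reporter was measured here.

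The label astrocyte fitted the CD51+ libraries and not the CD51- libraries. Sums of 3 marker lists were taken per library as RPKM (reads per kilobase of exon, scaled by the TMM-adjusted library size): 24 pan-astrocyte, 27 microglial and 24 oligodendrocyte genes. Pan-astrocyte markers made up 94.0%, 90.4% and 94.3% of the 3 sums in the CD51+ libraries and 6.25%, 6.08% and 13.1% in the CD51- libraries. Microglial markers took 1.98%, 5.26% and 1.79% in CD51+ and 56.8%, 59.0% and 36.4% in CD51-. Oligodendrocyte markers took 4.02%, 4.32% and 3.94% in CD51+ and 37.0%, 35.0% and 50.5% in CD51-. No share overlapped between the groups. The split between the other lists in CD51- depended on the measure: on the CPM scale, with no division by length, microglial markers took 25.4% and oligodendrocyte markers 63.1%, while RPKM sums without the most abundant marker of each list gave 69.7% and 20.6%. The astrocyte share in CD51- was 11.5% and 9.74% under those measures. In bulk RNA, fewer cells of a type and less RNA per cell cannot be told apart, so these are shares of marker RNA and not of cells.

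**Figure D1:**
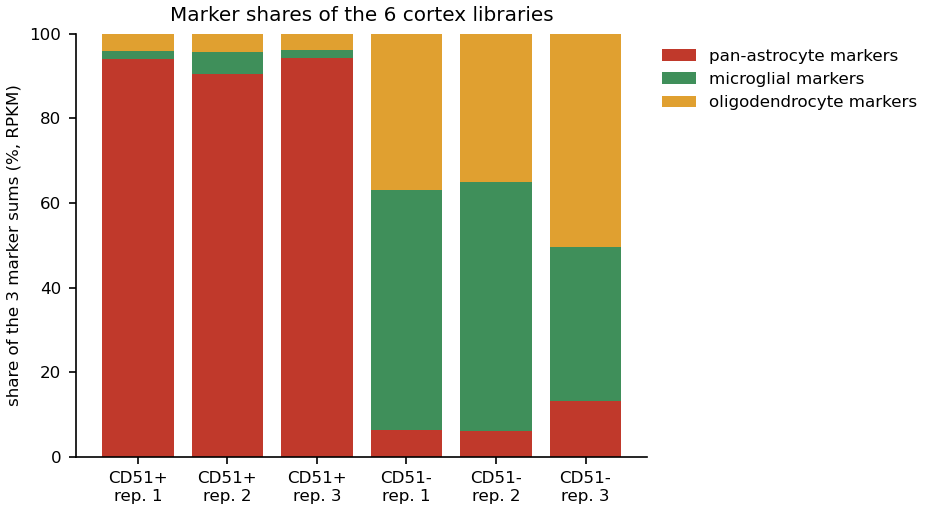
Share of summed marker RNA (percent, RPKM) in each of the 6 cortex libraries, for 24 pan-astrocyte, 27 microglial and 24 oligodendrocyte markers, which add to 100%. Pan-astrocyte markers take 90.4% to 94.3% in the CD51+ libraries and 6.08% to 13.1% in the CD51- libraries.

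In CPM the pan-astrocyte sum was 73096 ± 9632 (SD, n = 3) for CD51+ against 8546 ± 5852 for CD51-, an 8.55-fold difference. The microglial sum was 844 ± 496 and 16127 ± 2480, or 19.1-fold lower in CD51+, and the oligodendrocyte sum 3163 ± 191 and 44289 ± 18085, or 14-fold lower. Border macrophage and other leukocyte markers summed to 0 to 10.6 CPM in CD51+ and 199.8 to 421 in CD51-; 15 of the 20 had no count in CD51+, among them Cd163, Lyve1 and Lyz2, and 8 had none in CD51-. Oligodendrocyte precursor markers went the other way, 3063 to 4641 CPM in CD51+ and 252 to 1161 in CD51-. In every library most of this sum was Ptprz1, a gene of precursors and astrocytes whose values are given below. Of the 15, 5 had no count in CD51+ (Bmp4, C1ql1, Cspg4, Gpr17 and Neu4) and 4 had none in CD51-. The members that rose were Ptprz1, Cspg5 and Olig2, 3 of 9 tested, against 5.05% of all genes. Cspg5 was not called without CD51+ replicate 1 or 3 or CD51- replicate 3 (edgeR adjusted p = 0.0506, 0.0592 and 0.0554). Whether precursor cells gave this RNA was not tested. Neuronal markers summed to 729 to 1038 CPM in CD51+ and 238 to 513 in CD51-. Endothelial markers overlapped, at 88.2 to 272 and 129 to 182 CPM. Of the 16, 8 had no count in CD51+ and 4 had none in CD51-, with Cldn5 and Cdh5 among both. Mural and fibroblast markers were at 30.6 to 105 and 3.83 to 84.8 CPM, and ependymal and choroid plexus markers at 110.0 to 277 and 94.9 to 1005 CPM.

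Across all 12613 genes, edgeR's quasi-likelihood test at an adjusted p under 0.05 called 637 genes higher in CD51+ (5.05%) and 791 lower (6.27%), 11.3% in all. Libraries of the groups did not overlap for 31.7% of genes, 15.1% in the higher direction and 16.6% in the lower. The fold changes were large: the median among the called genes was 5.79 on the log2 scale for higher genes and -8.17 for lower genes, while the median over all genes tested was -0.03. Size went with level. Among higher genes under 100 CPM in CD51+ the log2 fold changes had medians near 9 (8.97 below 10 CPM, 9.26 from 10 to 100), against 3.44 from 100 to 1000 CPM and 2.96 above. Of the higher genes, 170 had no count in the CD51- libraries, and of the lower genes 206 had none in CD51+.

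With the log2 oligodendrocyte marker sum added to the fit as a covariate, 19 genes were called higher, 16 of them also called without it, and 107 lower, all of them also called without it. The sign was kept for 632 of the 637 and 779 of the 791. That sum differed 14-fold between the groups, so the part of the CD51 label and that of the marker sum cannot be told apart. Called members fell from 20 to 5 among pan-astrocyte markers, from 31 to 2 among further astrocyte genes, from 20 to 7 among microglial markers, from 24 to 10 among immediate early genes and from 29 to 11 in the NF-kappa-B list. The medians of these 5 lists were no nearer to 0, at 3.93, 5.03, -7.41, -8.20 and -10.53 with the covariate against 3.07, 3.11, -4.65, -6.08 and -9.01 without it. No oligodendrocyte marker was called, but the covariate is the sum of these markers, so this is no test of them. Of the genes given with values below, higher calls kept in that fit were those of Slc1a2, Slc1a3, Aqp4, Slc4a4, Sparcl1, Ptprz1, Itgb8 and Scd2. Lower calls kept were those of Csf1r, P2ry12, Tyrobp, Ctss, Irf8, Mrc1 and Plek, of Egr1, Fosb, Fos, Jun, Atf3, Klf4 and Hspa1a, of Nfkbiz, Ccl3, Ccl4, Il1a, Tnfaip3, Rel, Nlrp3, Birc3 and Cd83, and of Skil, Prox1, Rgs2, Serinc3 and H2-K1. All other calls of single genes given below were lost in that fit.

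**Figure D2:**
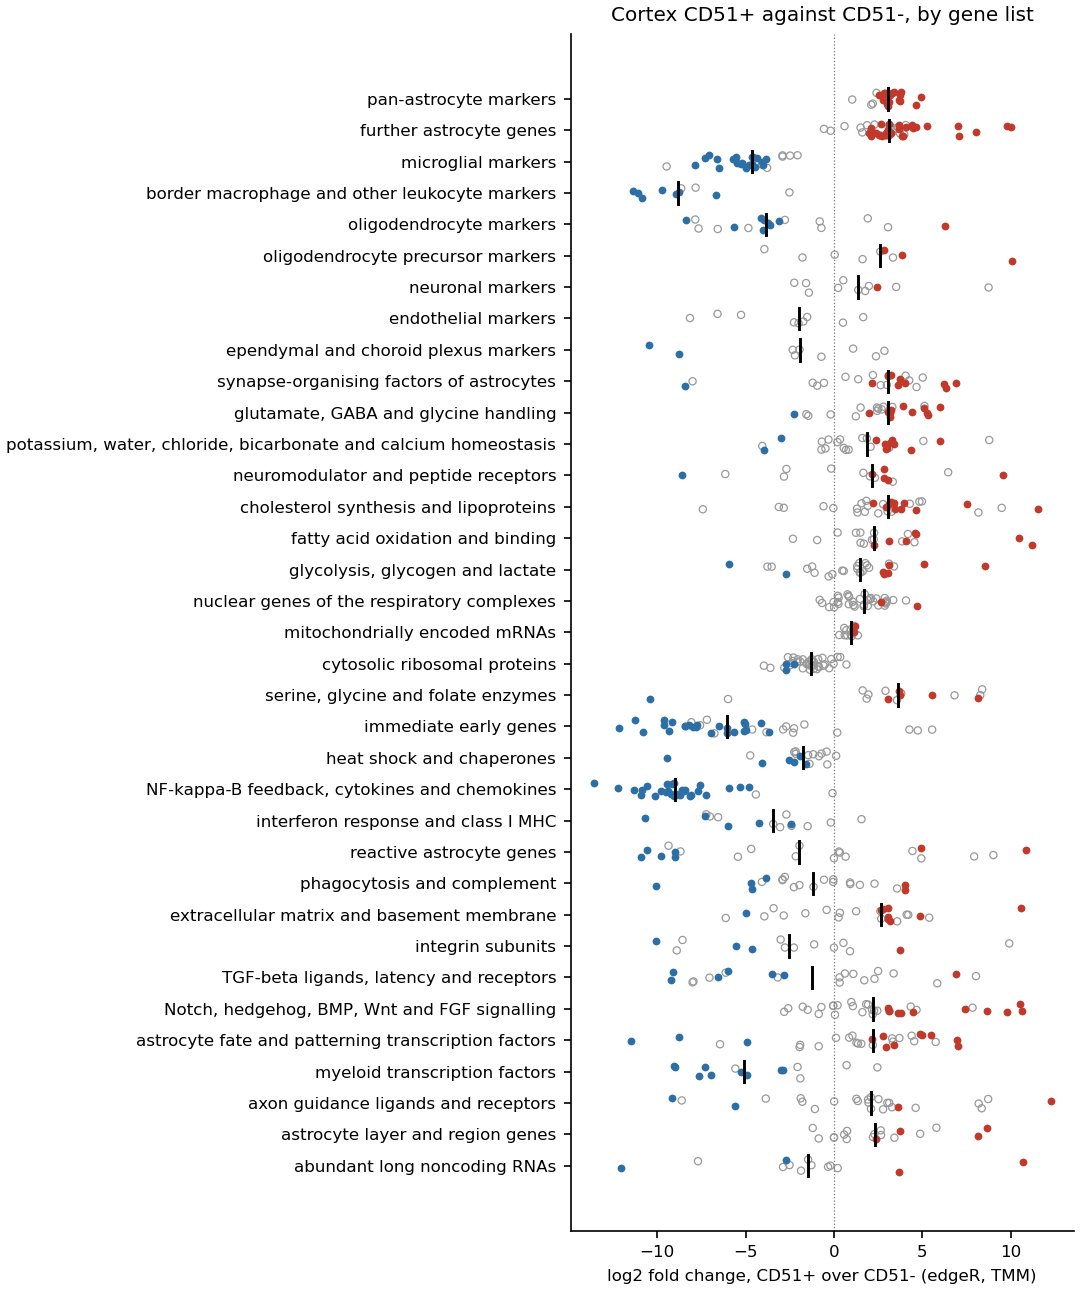
Log2 fold change of CD51+ over CD51- (edgeR, TMM) for each tested member of the gene lists with at least 9 tested members. Filled points passed an adjusted p of 0.05, red higher and blue lower, open points did not, and the bar marks the list's median, which is 3.07 for pan-astrocyte markers and -9.01 for NF-kappa-B feedback, cytokine and chemokine genes.

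Pan-astrocyte markers were higher in CD51+. Of 24, 20 rose, against 5.05% of all genes, and none fell. Libraries did not overlap for 23, all in the higher direction, against 15.1% of all genes. Log2 fold changes had a median of 3.07 and ran from 1.03 to 4.93. The glutamate transporter gene Slc1a2 was at 32390.5, 41344 and 45525 CPM in CD51+ and 2573, 2769 and 8249.7 in CD51-. The change on the log2 scale was 3.13 ± 0.39 (SE), with an edgeR adjusted p of 3.41e-05, although limma-voom gave an adjusted p of 0.733. The second such transporter gene, Slc1a3, was at 4471, 4624 and 5729 CPM against 373, 508 and 890.3, a change of 3.07 ± 0.44 (edgeR adjusted p = 0.000159). In both genes CD51- replicate 3 was the highest of its group, as it was in the astrocyte share, and still several-fold below every CD51+ library.

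The water channel gene Aqp4 behaved like the transporters, at 1892, 2232 and 2405 CPM in CD51+ and 116, 215 and 408 in CD51- (3.15 ± 0.54; edgeR adjusted p = 0.000708). Acsbg1, a fatty acyl-CoA synthetase gene, differed more, at 614, 415 and 363 CPM against 24.1, 6.95 and 24.4, or 4.65 ± 0.71 (edgeR adjusted p = 0.000245). Gja1, which encodes the gap junction protein connexin 43, changed by 2.99, Ndrg2 by 3.11 and the glycolytic aldolase gene Aldoc by 2.78 (edgeR adjusted p = 0.00149, 0.00059 and 0.00124). Gfap, the filament protein of white matter and reactive astrocytes, was uneven: 11.8, 30.7 and 238 CPM in CD51+ and 7.51, 0.240 and 1.31 in CD51-, so that 1 library, CD51+ replicate 3, held most of it. Its call (edgeR adjusted p = 0.00983) was lost without that library, at an adjusted p of 0.0989. Aldh1l1, often used to mark astrocytes, was at 79.4, 273 and 332 CPM against 6.75, 0.120 and 44.9; its edgeR adjusted p of 0.0463 rose to 0.0707 to 0.119 without CD51+ replicate 2 or 3 or without CD51- replicate 1 or 2.

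A second list of 48 astrocyte genes followed the first. In it 31 rose, against 5.05% of all genes, and none fell, with a median of 3.11. Sparcl1, a secreted protein that promotes synapse formation, was at 13381, 14738 and 17198 CPM in CD51+ and 1169, 1175 and 2486 in CD51- (3.23 ± 0.39; edgeR adjusted p = 2.37e-05). Changes were 3.87 for the lipid phosphatase gene Plpp3, 3.01 for the peptide-processing enzyme gene Cpe, 2.57 for the BDNF receptor gene Ntrk2 and 2.92 for the lipid carrier gene Apoe, with edgeR adjusted p-values of 0.000329, 0.000519, 0.000625 and 0.000969. Rgs20, a regulator of G protein signalling, stood out from the list at 119, 266 and 186 CPM against 2.45, 0 and 1.75, a change of 7.06 ± 1.25 (edgeR adjusted p = 0.000869).

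Genes that handle transmitters rose for glutamate and for GABA. Of 25 tested, 12 were higher, against 5.05% of all genes, and 1 was lower, near the 6.27% over all genes. The GABA-degrading transaminase gene Abat was at 262, 274 and 352 CPM in CD51+ and 7.76, 13.8 and 4.52 in CD51- (5.09 ± 0.80; edgeR adjusted p = 0.0003), and the GABA-A receptor subunit gene Gabrb1 at 460.5, 636 and 573 against 34.3, 29.1 and 49.2 (3.89 ± 0.60; edgeR adjusted p = 0.000245). Glud1, which oxidises glutamate, was at 1730.3, 1820.3 and 3058 against 332, 94.8 and 294 CPM, and Glul, which makes glutamine from it, at 3463, 4073 and 5451 against 993, 1145 and 1163; their changes were 3.20 and 1.98 (edgeR adjusted p = 0.000689 and 0.00229).

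Ion and water genes gave 9 of 27 higher, against 5.05% of all genes, and 2 lower, near the 6.27% over all genes. Kcnj10, the inward rectifier potassium channel Kir4.1, was at 1063, 1134 and 1268 CPM against 191, 301 and 175, a change of 2.38 ± 0.54 (edgeR adjusted p = 0.00648). Slc4a4, a bicarbonate cotransporter gene, was at 1899.8, 1856 and 2454 against 31.98, 189.6 and 366 (3.403 ± 0.66; edgeR adjusted p = 0.00187), and here CD51- replicate 1 was far below the others. The chloride cotransporter gene Slc12a2 went the opposite way, at 56.3, 18.1 and 16.2 CPM against 223, 218 and 284 (-2.999 ± 0.77; edgeR adjusted p = 0.0138), a call that ended without CD51+ replicate 2 or 3 (adjusted p of 0.0605 and 0.06). Among 15 receptor genes 5 were higher, against 5.05% of all genes, and only 2 or 3 when any library was left out. In that list Ntsr2, a neurotensin receptor, was at 491, 745 and 212 CPM against 30.6, 29.1 and 113. Of the 15, 1 was lower, near the 6.27% over all genes.

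Synapse-organising and matrix genes were higher in part. In the synapse list 10 of 24 rose and in the matrix list 8 of 24, against 5.05% of all genes. In each list 1 gene fell, near the 6.27% over all genes, Tnf in the first and the protease gene Adamts1 in the second. Ncan, which encodes the proteoglycan neurocan, was at 2504, 4991 and 3415 CPM in CD51+ and 385, 90.7 and 819 in CD51- (3.07 ± 0.58; edgeR adjusted p = 0.0016). Megf10, an engulfment receptor of astrocytes, was at 285, 235 and 109.8 against 11.1, 19.3 and 8.46 (4.02 ± 0.92; edgeR adjusted p = 0.00644). Lama2, the laminin alpha-2 chain of basement membranes, was at 146, 170.1 and 227 against 9.20, 7.19 and 1.90 CPM (4.88 ± 0.86; edgeR adjusted p = 0.000864). Timp3 and Hapln1, a protease inhibitor and a hyaluronan link protein, changed by 2.68 and 3.05 (edgeR adjusted p = 0.00897 and 0.0105). Adamts1 was at 4.20, 0 and 5.68 CPM against 79.9, 139.6 and 89.4, and its edgeR adjusted p of 0.0193 became 0.0534 without CD51+ replicate 1.

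Of the lipid genes, 11 of 31 for cholesterol synthesis and lipoproteins rose, against 5.05% of all genes, and none fell, with a median of 3.03. The count of higher genes fell to 5 without CD51+ replicate 3 and to 6 without CD51- replicate 1. It was 7 in the fit of only the cortex libraries or without CD51+ replicate 2. Clu, the lipoprotein clusterin, was at 2070.2, 2648 and 3392 CPM against 188, 46.5 and 623 (3.24 ± 0.64; edgeR adjusted p = 0.00217). Nsdhl, a late enzyme of cholesterol synthesis, was at 41.8, 25.4 and 71.8 CPM in CD51+ and had no count in CD51-, at least 387-fold higher against a floor of 3 counts over the group. Scd2, a fatty acid desaturase gene outside the lists, was at 1425, 1782 and 1791 against 167, 89.03 and 332 CPM (3.09 ± 0.56; edgeR adjusted p = 0.00104). In fatty acid oxidation 7 of 20 rose, against 5.05% of all genes, and 4 without CD51+ replicate 3. Acsl6 was among the 7, with a change of 3.12.

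Of 28 glycolysis and glycogen genes 6 were higher (3 without CD51- replicate 1), against 5.05% of all genes, and 2 were lower, near the 6.27% over all genes. Pfkp, the platelet-type phosphofructokinase gene, was at 188, 171 and 78.7 CPM in CD51+ against 8.27, 1.20 and 3.50 (5.07 ± 1.02; edgeR adjusted p = 0.00254), and the glycogen phosphorylase gene Pygm at 33.1, 108 and 74.1 against 0, 0 and 0.584 (8.52 ± 2.10; edgeR adjusted p = 0.0109). The lower genes were Hk2, a hexokinase gene, at 0.168, 2.82 and 0 against 59.4, 47.2 and 87.2 CPM, and Pfkfb3, which makes the activator of phosphofructokinase, at 21.5, 19.8 and 55.4 against 151, 215 and 258. Both calls (edgeR adjusted p = 0.0352 and 0.0286) were lost on leaving out single libraries, at 0.0536 to 0.0983 for Hk2 without CD51+ replicate 1 or 3 or CD51- replicate 1 or 3, and 0.0939 and 0.0975 for Pfkfb3 without CD51+ replicate 1 or 2. Nuclear genes of the respiratory complexes gave 2 of 37 higher, near the 5.05% over all genes. Their median was 1.69, however, and 15 of the 37 were higher without overlap, against 15.1% of all genes. Of the 13 mitochondrially encoded mRNAs 2 were called higher, against 5.05% of all genes, with a median of 0.96; the count was 0 without CD51+ replicate 2 or CD51- replicate 1 or 2, 1 without CD51+ replicate 3, 3 without CD51+ replicate 1 and 6 without CD51- replicate 3. Cytosolic ribosomal protein genes gave 3 of 42 lower, near the 6.27% over all genes, and none without CD51+ replicate 1 or 3 or CD51- replicate 1, with a median of -1.32. Without overlap 22 of the 42 were lower, against 16.6% of all genes. The mitochondrial ribosomal RNA gene mt-Rnr1 was at 7740.4, 15494 and 890346 CPM against 1659, 4542 and 5969.7, with CD51+ replicate 3 far above the rest. Its call (edgeR adjusted p = 0.000869) was kept without CD51+ replicate 3. It was not called by limma-voom (adjusted p = 0.997) or with robust dispersion (edgeR adjusted p = 0.0549).

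In Notch, hedgehog, BMP, Wnt and FGF signalling 10 of 33 were higher, against 5.05% of all genes, and none lower. The count of higher genes was 6 without CD51+ replicate 2 or 3 or CD51- replicate 1. Fgfr3, an FGF receptor gene, was at 599, 442 and 981 CPM against 74.9, 16.2 and 56.5 (3.78 ± 0.72; edgeR adjusted p = 0.00162). Gli2, a hedgehog effector, was at 60.5, 28.1 and 299 against 0, 0 and 0.438 CPM, with 3 counts in CD51-, and the ratio of counts summed over each group and scaled by library size, used for all genes with 1 to 3 counts in a group, was 991 (95% counting interval 338 to 4807); Spry2, a feedback inhibitor of FGF signalling, was at 36.4, 21.4 and 77.5 against 0.253, 0 and 0, with a summed-count ratio of 369.8 (95% counting interval 126 to 1797). In the list of fate and patterning factors 9 of 29 rose and 3 fell, against 5.05% and 6.27% of all genes. Lhx2, a cortical selector gene, was at 86.99, 189 and 113 against 0.844, 4.91 and 7.59 CPM (4.87 ± 0.97; edgeR adjusted p = 0.00216), Sox2, a stem cell and glial factor, at 102, 26.03 and 89.7 against 0.169, 0.120 and 1.46 (6.97 ± 1.48; edgeR adjusted p = 0.00388), and Dbx2 at 107, 144 and 151 against 0.253, 0 and 2.92 (6.999 ± 1.51; edgeR adjusted p = 0.00423). Rorb, a factor of cortical layer identity, changed by 2.75 and Id4 by 3.09 (edgeR adjusted p = 0.00172 and 0.00564).

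Otx2 and Prox1 were among the 3 factors that fell. Otx2, a choroid plexus factor, had no count in CD51+ and was at 0, 0 and 20.1 CPM in CD51-, and without CD51- replicate 3 its edgeR adjusted p went from 0.0488 to 1. Prox1, a factor of dentate granule cells, lymphatic endothelium and some oligodendrocytes, had 1 count in CD51+ and stood at 7.003, 535 and 85.9 CPM in CD51-, a summed-count ratio of 3549 (95% counting interval 637 to 140216) in favour of CD51-, and its 3 CD51- libraries ranged over nearly 2 orders of magnitude.

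Several abundant genes outside the lists were also higher in CD51+, without overlap between the groups. Luzp2 was at 2837, 2955 and 3137 CPM against 229, 363 and 706 (2.78 ± 0.51; edgeR adjusted p = 0.00123). Scg3, a secretory granule protein, was at 2031, 2147 and 2176 against 172, 163 and 349 (3.22 ± 0.51; edgeR adjusted p = 0.000329). Prex2, a Rac exchange factor, was at 1719.8, 1455 and 3154 against 149.9, 130.1 and 237 (3.61 ± 0.52; edgeR adjusted p = 0.000164). The sulfotransferase gene Chst2 and the glutathione transferase gene Gstm1 changed by 2.17 and 2.46 (edgeR adjusted p = 0.00327 and 0.00132). Neurons also express Scg3. Of 11 tested neuronal markers 1, Map2, was called higher, against 5.05% of all genes. Its edgeR adjusted p was 0.0212, and 0.0588 without CD51+ replicate 1 and 0.0657 without CD51- replicate 2. The part of neuronal RNA in the values of these genes was not tested.

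**Figure D3:**
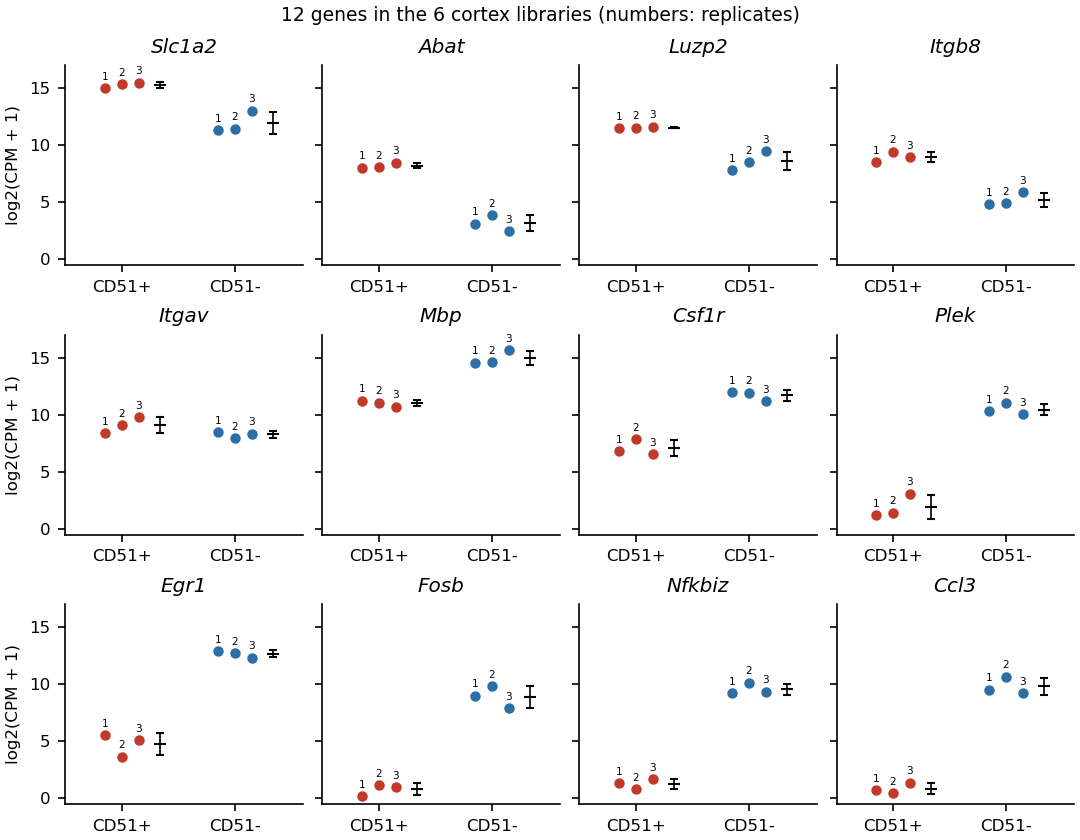
Level of 12 genes in the 6 cortex libraries, as log2(CPM + 1), with replicates numbered and the mean ± SD (n = 3) beside each group. The groups overlap for Itgav, CD51+ is above CD51- for Slc1a2, Abat, Luzp2 and Itgb8, and CD51- is above CD51+ for the other 7.

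Microglial markers were lower in CD51+ throughout. All 27 tested markers were lower without overlap, against 16.6% of all genes, with a median of -4.65. Of them 20 passed the test, against 6.27% of all genes. Csf1r, the receptor on which microglia depend, was at 112, 229 and 92.5 CPM in CD51+ and 3997, 3901 and 2286 in CD51- (-4.55 ± 0.75; edgeR adjusted p = 0.000477). The purinergic receptor gene P2ry12 was at 91.7, 227 and 107 against 2810.0, 2272 and 1994 (-4.05 ± 0.70; edgeR adjusted p = 0.000731). In both genes CD51+ replicate 2 was the highest of its group, the library with the highest microglial share. Tyrobp, a signalling adaptor, was at 0.672, 2.18 and 2.03 against 279, 570.4 and 307 CPM (-7.87 ± 0.92; edgeR adjusted p = 1.98e-05), while Ctss, a lysosomal protease gene, was at 6.89, 29.2 and 5.07 against 747, 682 and 712 (-5.69 ± 0.85; edgeR adjusted p = 0.0002). The markers were thus unequal among themselves, from -9.47 to -2.06.

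Myeloid transcription factors gave 9 of 14 lower, against 6.27% of all genes, and none higher. Irf8 was at 0.168, 2.18 and 1.42 CPM in CD51+ against 75.3, 429 and 103 (-7.30 ± 1.34; edgeR adjusted p = 0.00123), and Fli1 at 0, 1.54 and 0 against 110.4, 89.6 and 129 (-7.61 ± 1.68; edgeR adjusted p = 0.00509). Of 10 tested leukocyte and border macrophage markers 7 were lower, against 6.27% of all genes. The count was 4 without CD51+ replicate 1 or 2 and 3 without CD51- replicate 1. Mrc1, the mannose receptor of border macrophages, had 1 count in CD51+ and was at 58.2, 59.9 and 65.4 CPM in the other group, a summed-count ratio of 1131 (95% counting interval 203 to 44702), and the lysozyme gene Lyz2 had none and was at 21.2, 40.3 and 62.6, at least 234-fold lower in CD51+.

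Of 18 tested oligodendrocyte markers 8 were lower in CD51+ (5 without CD51+ replicate 1 or 3), against 6.27% of all genes. Only 1 was higher, near the 5.05% over all genes. Mbp, the myelin basic protein gene, was at 2407, 2127 and 1671 CPM in CD51+ and 24041, 24962 and 50845 in CD51- (-4.01 ± 0.55; edgeR adjusted p = 0.000104), and Mobp, another myelin protein gene, at 284, 327 and 871 and 7464, 6346 and 9299.6 (-3.96 ± 0.67; edgeR adjusted p = 0.000592). The groups did not overlap in either, but limma-voom gave adjusted p-values of 0.929 and 0.0624. Ermn, a late oligodendrocyte cytoskeletal gene, was at 0.672, 0 and 1.42 against 358, 273 and 40.8 CPM (-8.36 ± 1.37; edgeR adjusted p = 0.000477). Gpr37 was the member that rose, at 2.35, 108 and 401 against 4.05, 0 and 2.33 CPM, mostly in CD51+ replicates 2 and 3, and its edgeR adjusted p of 0.0159 became 0.0882 without replicate 3. Sox10, the master factor of these cells, had no count in either group. Olig2, known for the oligodendrocyte lineage and also used by some astrocytes, was at 87.8, 33.99 and 63.3 CPM in CD51+ with 1 count in CD51-, a summed-count ratio of 1593 (95% counting interval 285 to 62976). Ptprz1, a receptor phosphatase of precursors and astrocytes, was at 2765, 3919.8 and 2488 against 156, 216 and 894 (2.86 ± 0.56; edgeR adjusted p = 0.00204).

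Immediate early genes, which cells switch on within minutes of a stimulus, were among the largest differences. Of 39 tested 24 were lower in CD51+ and none higher, against 6.27% of all genes, with a median of -6.08. Egr1 (ENSMUSG00000038418.7, chromosome 18, 34859823 to 34864984, plus strand) was at 46.2, 11.7 and 33.7 CPM in CD51+ and 7696, 6861 and 5091 in CD51-, and changed by -7.75 ± 0.65 (edgeR adjusted p = 2.67e-07; limma-voom 0.0868). Fosb, a member of AP-1, was at 0.168, 1.28 and 1.01 against 512, 893 and 239 (-9.34 ± 1.12; edgeR adjusted p = 2.37e-05), and Jun at 4.20, 13.2 and 50.9 against 2067, 2287 and 1741 (-6.48 ± 0.85; edgeR adjusted p = 6.26e-05). The stress factor gene Atf3 was at 1.01, 0.769 and 15.2 against 1599, 1358 and 1323 CPM (-7.99 ± 1.06; edgeR adjusted p = 7.26e-05), Klf4 at 0.168, 0.128 and 1.62 against 616, 455 and 356 (-9.59 ± 1.29; edgeR adjusted p = 8.88e-05) and Fos at 52.2, 1.28 and 5.88 against 1260.5, 965 and 819 (-5.68 ± 1.04; edgeR adjusted p = 0.00119). All 3 CD51- libraries were high in each of these genes and all 3 CD51+ libraries low, with CD51+ replicate 1 the highest of its group for Fos. Heat shock and chaperone genes gave 6 of 18 lower, against 6.27% of all genes, and 1 or 2 without CD51+ replicate 1 or CD51- replicate 1 or 2. They were led by the inducible Hsp70 gene Hspa1a at 0.336, 0.128 and 0.406 against 152, 223 and 239 CPM (-9.44 ± 1.32, edgeR adjusted p = 0.000118), while the list's median was -1.75.

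NF-kappa-B is a transcription factor that inflammatory signals release and that turns on its own inhibitors together with cytokines and chemokines. Of 31 tested genes of this kind, 29 were lower in CD51+, against 6.27% of all genes, and none higher. Their median was -9.01 (-8.58 with genes that had no count in CD51+ at their floor). Nfkbiz (ENSMUSG00000035356.17, chromosome 16, 55811375 to 55838899, minus strand), a nuclear co-factor induced by NF-kappa-B, was at 1.51, 0.769 and 2.23 CPM in CD51+ and 602, 1116 and 654 in CD51- (-9.04 ± 0.83; edgeR adjusted p = 7.67e-07). The chemokine gene Ccl3 was at 0.672, 0.385 and 1.62 against 734, 1618 and 602 (-10.12 ± 0.99; edgeR adjusted p = 1.3e-06), Ccl4 at 1.18, 2.95 and 2.23 against 513, 284 and 443 (-7.59 ± 0.92; edgeR adjusted p = 2.37e-05), and the cytokine gene Il1a at 0.336, 0 and 1.22 against 607, 1493 and 652 (-10.85 ± 1.501; edgeR adjusted p = 0.00011). Tnf had 3 counts in CD51+ and was at 119.7, 44.6 and 43.6 CPM in the other group, a summed-count ratio of 481 (95% counting interval 164 to 2335). Tnfaip3, the feedback inhibitor A20, was at 5.71, 4.23 and 3.65 against 1174, 1359 and 1138 CPM (-8.07 ± 1.14; edgeR adjusted p = 0.000138). Replicates of CD51- agreed within a few-fold in these genes, and no CD51+ library came near them. The microglial, oligodendrocyte and border macrophage or leukocyte marker sums were also higher in CD51-, by 19.1-fold, 14-fold and 80.2-fold. Which cells gave the RNA of the early and NF-kappa-B genes was not tested.

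The promoters of NF-kappa-B list genes are shown because the list was lower almost as a whole and many of its promoters hold a kappa-B match. The 250 bases before each RefSeq start (GRCm38.p6) were searched on both strands for the 10-base kappa-B consensus. Of 22 tested list members with a promoter in that table, 11 held a match, against 5.7% of 9004 tested genes with one. The list was picked as genes of the NF-kappa-B response, so this share is no test. The 5 printed had to hold a match and have a RefSeq start within 10 bases of the annotated gene start. They are the first 5 such members by p, with members on the chromosome of Egr1 left out. Each runs 5′ to 3′ on the strand of the gene, with kappa-B matches in capitals. A match is a description of letters and not a binding site.
Rel: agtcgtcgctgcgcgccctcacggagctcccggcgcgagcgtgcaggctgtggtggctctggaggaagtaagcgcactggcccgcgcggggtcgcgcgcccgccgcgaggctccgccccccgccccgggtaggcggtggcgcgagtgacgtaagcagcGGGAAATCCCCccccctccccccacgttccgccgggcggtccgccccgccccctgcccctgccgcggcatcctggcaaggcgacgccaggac
Nlrp3: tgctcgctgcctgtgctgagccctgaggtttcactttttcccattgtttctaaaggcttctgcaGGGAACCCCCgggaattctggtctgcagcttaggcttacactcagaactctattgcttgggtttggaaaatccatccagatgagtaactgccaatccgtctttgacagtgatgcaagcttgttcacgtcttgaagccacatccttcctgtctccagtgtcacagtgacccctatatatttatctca
Csf1: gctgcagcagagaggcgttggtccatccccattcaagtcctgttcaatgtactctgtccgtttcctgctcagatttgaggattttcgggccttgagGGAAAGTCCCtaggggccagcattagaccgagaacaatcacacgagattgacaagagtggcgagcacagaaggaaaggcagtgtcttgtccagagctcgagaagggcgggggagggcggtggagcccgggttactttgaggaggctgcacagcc
Nfkbie: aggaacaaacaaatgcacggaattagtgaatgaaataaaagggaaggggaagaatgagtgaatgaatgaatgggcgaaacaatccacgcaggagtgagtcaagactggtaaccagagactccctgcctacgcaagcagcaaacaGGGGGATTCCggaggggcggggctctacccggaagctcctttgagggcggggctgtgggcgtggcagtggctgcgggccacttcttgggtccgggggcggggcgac
Nfkbia: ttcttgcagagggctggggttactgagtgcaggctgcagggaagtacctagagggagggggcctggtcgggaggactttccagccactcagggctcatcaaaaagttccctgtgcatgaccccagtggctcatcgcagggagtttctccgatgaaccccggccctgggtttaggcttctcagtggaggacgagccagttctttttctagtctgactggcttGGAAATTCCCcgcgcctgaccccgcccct

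These stretches lie at chr11:23770970-23771219 (minus strand) for Rel, chr11:59541319-59541568 (plus) for Nlrp3, chr3:107760470-107760719 (minus) for Csf1, chr17:45555450-45555699 (plus) for Nfkbie and chr12:55492648-55492897 (minus) for Nfkbia. Rel, the NF-kappa-B subunit c-Rel, holds 2 overlapping matches printed as 1 run, 92 to 82 bases before the start, and was at 0.168, 3.85 and 1.83 CPM in CD51+ and 302, 583 and 333 in CD51- (-7.68 ± 1.09; edgeR adjusted p = 0.000138). Nlrp3, the inflammasome sensor, holds its match 186 to 177 bases before the start and was at 1.51, 0.128 and 0 against 269.8, 209.6 and 233 (-8.72 ± 1.36; edgeR adjusted p = 0.000287). Csf1, a ligand of Csf1r, holds its match 154 to 145 bases before the start and was at 2.35, 2.82 and 9.13 against 334, 323 and 228 (-5.95 ± 1.08; edgeR adjusted p = 0.0011). The inhibitor genes Nfkbie and Nfkbia hold theirs at 106 to 97 and at 29 to 20 bases, and were at 0, 0 and 0.609 against 89.4, 103 and 36.9 and at 7.72, 0.256 and 1.01 against 85.5, 154 and 115 CPM; the first has 3 counts in CD51+, a summed-count ratio of 499 (95% counting interval 171 to 2424), and the second changed by -5.30 ± 1.32 (edgeR adjusted p = 0.0114; 0.0522 without CD51+ replicate 3). In the same window a PU.1 site spelled GAGGAAGT was found in 5.97% of genes lower in CD51+ with a promoter, 0.652% of higher genes and 2.88% of all tested genes. The kappa-B shares for those 3 groups were 9.95%, 6.52% and 5.7%. The lower genes include most members of the NF-kappa-B list, so the first share is not independent of that list.

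To set gene differences against the cell type markers, the contrast was refitted with a marker sum as the library size, so that a fold change reads as level per unit of marker RNA. Against the pan-astrocyte sum, 115 genes (0.913% of 12589) were higher in CD51+ and 4864 (38.6%) lower. Of the 617 higher genes outside the marker list, 496 (80.4%) were not called in this fit, 115 stayed higher and 6 turned lower. Against the microglial sum, 59 genes (0.469% of 12586) were lower in CD51+ and 5609 (44.6%) higher; of 771 lower genes outside that list 704 (91.3%) were not called and 59 stayed lower. Against the oligodendrocyte sum 167 (1.33% of 12595) were lower and 4709 (37.4%) higher, and of 783 lower genes 614 (78.4%) were not called. In all, 56 genes were lower against both the microglial and the oligodendrocyte sum. A gene that was not called may still differ. The counts that stayed depended on single libraries: leaving each out in turn gave 38 to 92 genes higher against the astrocyte sum, 10 to 43 lower against the microglial sum and 61 to 153 lower against the oligodendrocyte sum. With the geometric mean of the microglial markers in place of their sum, 18 were lower, while that of the oligodendrocyte markers gave 457 lower.

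**Figure D4:**
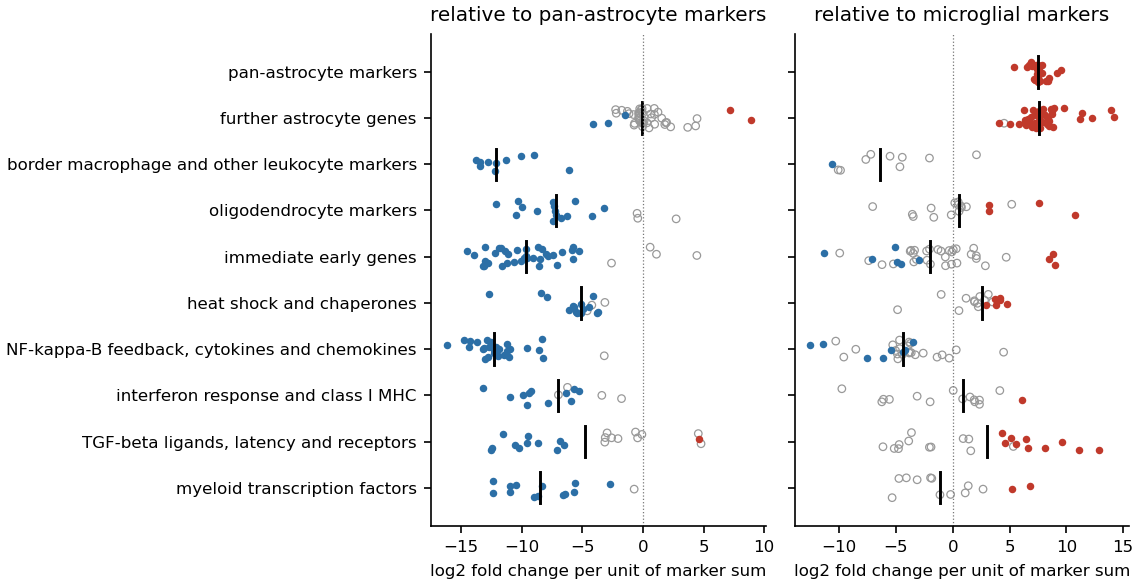
Log2 fold change per unit of pan-astrocyte marker RNA (left) and of microglial marker RNA (right) for members of 10 lists; filled points passed an adjusted p of 0.05, red higher and blue lower in CD51+, and bars are medians. The pan-astrocyte row is empty on the left because its genes make up the scale, and on that side the further astrocyte genes have a median of -0.05.

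Per unit of pan-astrocyte RNA, astrocyte genes of the second list lay around 0, with a median of -0.05. Of 48, 2 were higher (Mt3 and Gli2) and 3 lower, against 0.913% and 38.6% of all genes. Glul was one of the lower, at -1.47 (edgeR adjusted p = 0.0252), although it rose in the plain comparison. Of the genes above 1000 CPM 2 stayed higher, 1 of them the mitochondrial ribosomal RNA gene mt-Rnr1, at 2.82 (edgeR adjusted p = 0.0266). The GABA genes Gabrb1 and Abat were not called, at 0.56 and 1.45 (edgeR adjusted p = 0.521 and 0.244). Others that stayed higher were Tgfb2, a TGF-beta ligand, at 4.60 (152, 178 and 27.8 CPM against 0, 0 and 3.06; edgeR adjusted p = 0.0488), Sox2 at 4.28 and Pygm at 5.997 (edgeR adjusted p = 0.0446 and 0.0444). Gli2 and Olig2 stayed higher too (edgeR adjusted p = 0.0228 and 0.0216). Each of the 6 libraries was left out in turn. Mt3 lost its call in 6 of these fits, and Glul, Tgfb2, Sox2 and Pygm in 5 each. Gli2 lost it in 3, and Olig2 and mt-Rnr1 in 2 each. The highest edgeR adjusted p-values were 0.101 for Tgfb2, 0.109 for Sox2, 0.101 for Pygm and 0.085 for Gli2. They were 0.0553 for Olig2, 0.0768 for Glul, 0.0976 for Mt3 and 0.102 for mt-Rnr1. The lower call of Itgav on this scale was kept each time, with a highest adjusted p of 0.0358.

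Most of these 115 genes were of low level. Their median was 29.1 CPM in CD51+, 86 had no count in the CD51- libraries and 99 had at most 3. Among the higher genes under 100 CPM, 31.3% stayed higher against the astrocyte sum, compared with 3.63% of those from 100 to 1000 CPM and 5.41% of those above. Nsdhl, Pdgfrb, Rmst, Serpina3n and Maob had no count in CD51-. Pdgfrb, a receptor gene of pericytes, was at 19.98, 36.4 and 52.2 CPM in CD51+, at least 319-fold higher. Of the 17 mural and fibroblast markers, 8 had no count in CD51- and 9 had none in CD51+, Vtn and Kcnj8 among the latter. The long noncoding RNA gene Rmst was at 18.5, 16.8 and 40.6 (at least 213-fold), Serpina3n, an acute phase gene of reactive astrocytes, at 40.3, 29.9 and 14.2 (at least 262-fold) and Maob, a monoamine oxidase gene, at 13.8, 121 and 29.4 (at least 565-fold). Of the 5, Serpina3n lost the call on the astrocyte scale when single libraries were left out (edgeR adjusted p up to 0.0623).

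Per unit of microglial RNA, a set of early and NF-kappa-B genes stayed lower in CD51+. Of 39 immediate early genes 6 were lower and 3 higher, and of 31 NF-kappa-B list genes 8 were lower and none higher. Over all genes 0.469% were lower and 44.6% higher. The medians of the 2 lists were -1.97 and -4.38 against 4.35 over all genes. Egr1 was at -2.95 (edgeR adjusted p = 0.0253), Fosb at -5.11 (0.0236) and Klf4 at -4.94 (0.036). For Nfkbiz the value was -4.38 (0.0286), for Ccl3 -5.46 (0.0108), for Il1a -6.11 (0.0167) and for Tnfaip3 -3.49 (0.0402), all edgeR adjusted p. Cd83, an activation marker of microglia, was at 4.20, 1.92 and 5.68 CPM against 2281, 2390.1 and 1031 and at -4.19 per unit of microglial RNA (edgeR adjusted p = 0.0259). With each of the 6 libraries left out in turn, Ccl3 kept its call each time (highest edgeR adjusted p = 0.0384). Tnfaip3 lost its call in 6 of these fits, Klf4 and Nfkbiz in 5 each and Fosb in 4. Egr1 and Cd83 lost it in 3 each and Il1a in 2. Their highest edgeR adjusted p-values ran from 0.0518 for Il1a to 0.104 for Tnfaip3. With the geometric mean of the markers none of these 8 was called, and Ccl3 had an adjusted p of 0.0773. Jun, Atf3, Ccl4 and Rel were not called on this scale, at -1.97, -3.37, -3.30 and -3.66 (edgeR adjusted p = 0.172, 0.0567, 0.104 and 0.0844).

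Plek, pleckstrin of blood cells and microglia, was the most abundant gene outside the lists that stayed lower, at 1.34, 1.67 and 7.51 CPM against 1249.5, 2106 and 1049.8 and -4.12 per unit of microglial RNA (edgeR adjusted p = 0.0215; up to 0.071 with a library left out). Birc3, an apoptosis inhibitor induced by NF-kappa-B, had 2 counts in CD51+ and was at 153, 598 and 112 CPM in the other group, a summed-count ratio of 2616 (95% counting interval 724 to 21606). Rgs2 was at 0.504, 0 and 0.203 against 153, 216 and 268 CPM (-9.78 ± 1.23; edgeR adjusted p = 3.82e-05). Of the 59 genes, 36 had no count in CD51+ and 45 at most 3. The microglial markers themselves spread from -9.47 to -2.06 in the plain comparison, and 255 of the 771 lower genes outside the list lay below the lowest of them. A further 8 lower genes turned higher on this scale, among them the actin, elongation factor and chaperone genes Actb, Eef1a1 and Hsp90aa1. Their higher calls were lost when single libraries were left out, at adjusted p-values up to 0.0648, 0.0844 and 0.0822, and their lower calls in the plain comparison ended in 5, 6 and 10 of 18 alternatives. B2m, the light chain of class I MHC, fell in the plain comparison (224, 419.9 and 136 CPM against 1686, 1509 and 979; -2.42 ± 0.58; edgeR adjusted p = 0.00956) and was not called per unit of microglial RNA, at 1.94 (edgeR adjusted p = 0.0875).

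Other lower genes outside the lists included Jmjd1c, a histone demethylase family gene, at 202, 307 and 471 CPM against 1849, 2265 and 2014 (-2.64 ± 0.52; edgeR adjusted p = 0.00189), and Serinc3, at 227, 237 and 163 against 2042, 1818 and 1128 (-2.99 ± 0.56; edgeR adjusted p = 0.00145). Fth1, the ferritin heavy chain gene, was at 329, 316 and 111 against 1514, 1129 and 1508 (-2.46 ± 0.56; edgeR adjusted p = 0.00643). Neat1, a nuclear long noncoding RNA, was at 114, 298 and 305 against 1255, 1888 and 1464 (-2.69 ± 0.56; edgeR adjusted p = 0.00322), and the small nuclear RNA gene Rn7sk at 117, 49.2 and 213 against 864, 2062 and 784 (-3.29 ± 0.64; edgeR adjusted p = 0.00176). Fth1 and Rn7sk have near-identical copies elsewhere in the genome, so their counts are uncertain. Each of the 5 differed less than the microglial median of -4.65.

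Among integrin and TGF-beta genes, 1 of 14 and 1 of 22 were higher, near the 5.05% over all genes, and 3 and 6 lower, against 6.27%. Of the integrin subunits Itgb8 rose, at 368, 696 and 486 CPM against 27.2, 29.8 and 57.6 (3.76 ± 0.70; edgeR adjusted p = 0.00139), and was at 0.52 per unit of astrocyte RNA (edgeR adjusted p = 0.603). Itga1, Itga9 and Itgam were lower, and none of the 3 was called without CD51+ replicate 1 or 3 or CD51- replicate 2, at edgeR adjusted p-values up to 0.108. Of the TGF-beta genes Tgfb2 rose and 6 fell. Tgfb1 was at 0.168, 2.05 and 1.01 against 81.1, 80.3 and 48.7 CPM (-5.99 ± 1.46; edgeR adjusted p = 0.0102), the receptor gene Tgfbr1 at 36.6, 94.1 and 131 against 889.7, 571 and 426 (-2.85 ± 0.63; edgeR adjusted p = 0.00526), and Skil, a repressor that TGF-beta induces, at 1.18, 10.5 and 31.5 against 1202, 1943 and 859 (-6.54 ± 0.94; edgeR adjusted p = 0.000162). Smad7, the inhibitory Smad, had 3 counts in CD51+ and was at 122, 107 and 81.4 CPM in the other group, a summed-count ratio of 666 (95% counting interval 228 to 3231). None of the 6, which also include Nrros and Ski, was called lower per unit of microglial RNA.

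The hippocampus libraries of the same series, 3 in each class, gave the same comparison in other samples. There the pan-astrocyte share was 87.7% ± 3.43 (SD, n = 3) for CD51+ against 20.7% ± 3.02 for CD51-. In that region 78 genes were called higher (0.618%) and 340 lower (2.7%). Of the cortex calls, 535 of 637 higher genes (84.0%) and 763 of 791 lower genes (96.5%) had the same sign in hippocampus, where 67.1% of all genes did. Calls shared in direction were 57 higher genes, 8.95% of the cortex and 73.1% of the hippocampus calls, and 286 lower genes, 36.2% and 84.1%. For Slc1a2, Mbp and Egr1 the hippocampus log2 fold changes were 1.76, -3.21 and -5.42 (edgeR adjusted p = 0.00732, 0.001 and 6.92e-06).

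**Figure D5:**
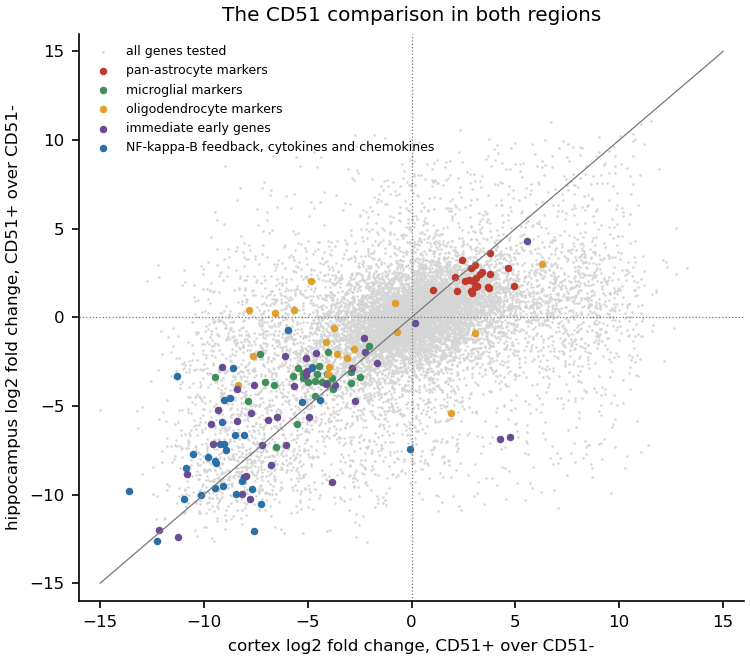
Log2 fold change of CD51+ over CD51- in cortex (x axis) and in hippocampus (y axis) for all genes tested (grey) and the members of 5 lists (coloured); the diagonal marks equal values. Pan-astrocyte markers sit above 0 in both regions, and nearly all microglial, immediate early and NF-kappa-B list genes sit below 0 in both.

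No gene passed the test of the difference between the regions (0 of 12613, 0.0%, by edgeR's interaction term), while 1583 had an unadjusted p under 0.05 (12.6%); limma-voom called 0 and DESeq2 522. The difference of the changes, cortex minus hippocampus, was 1.37 for Slc1a2 and -2.32 for Egr1 (edgeR adjusted p = 0.264 and 0.17). A p that misses the threshold does not show that the regions act alike.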

How the data were processed

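RNA of sorted cortex cells was extracted with a micro column kit and 10 ng went into libraries read in pairs, per the labels' protocols. The deposited file holds counts of read pairs over exons of GENCODE genes, made by featureCounts 2.0.4 with no use of strand, per the file headers; STAR, mm10 and DESeq2 1.40.2 are named in the submitters' processing notes. Reads of overlapping or antisense genes therefore cannot be told apart, and near-identical copies are uncertain. Gene names came from an annotation table that matched 55141 of 55401 identifiers.

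From the deposited counts, edgeR 4.0.16 (R 4.3.3; TMM factors, default low-count filter, quasi-likelihood F test, Benjamini-Hochberg) was fitted to all 12 libraries in 4 groups without a block. Standard errors were taken from the F statistic. CPM and RPKM were computed here. Intervals (95%) and the floor of 3 counts over a group cover counting error only. Libraries were grouped by title. DESeq2 1.42.0 and limma 3.58.1 (voom), other scalings, filters and samples were alternatives. The fitting code was tested on simulated data. The members and the gene lists were chosen with earlier results of these data known. Beyond Itgav, genes were named by a rule: the most abundant called genes in no list, members of each list by p or called against its median, and genes called by p in the fits on marker sums. No pair of replicates differed by less than sampling noise. Some genes that the rule names are not reported here.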

Additional observations from a re-analysis of the deposited data

How the results depend on the processing

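The 1428 genes called became 3219 with DESeq2, 2164 with limma-voom, 126 with the oligodendrocyte marker sum as covariate and 850 to 1466 with single libraries left out; 637 higher became 1472, 1079, 19 and 353 to 632, and 791 lower became 1747, 1085, 107 and 454 to 834. The share of calls that were higher was 44.6%, and 15.1% with the covariate. The median log2 fold change of all genes moved from -0.03 to 0.15 with limma-voom, 0.21 with the covariate and -0.14 without mitochondrial genes. With single libraries left out it ran from -0.25 (CD51+ replicate 1) to 0.08 (CD51- replicate 1). With the replicate number as a block 1260 were called (560 higher, 700 lower); same-numbered cortex libraries had correlations of -0.005, -0.01 and -0.016 in their deviations, and the pairing is not given by the labels. The test between regions called 0 genes, 522 with DESeq2, 146 without a filter, 1 with robust dispersion and 0 to 17 with single libraries left out. Calls against the pan-astrocyte sum (4979) ranged from 3089 to 5303 with single libraries left out, and those against the oligodendrocyte sum (4876) fell to 2770 with the geometric mean. Marker shares in CD51- moved to 25.4% microglial and 63.1% oligodendrocyte on the CPM scale, and to 69.7% and 20.6% without the top markers, where the oligodendrocyte share in CD51+ was 2.53%. With the covariate Mbp, Mobp and Otx2 reversed, to 0.21, 0.30 and 1.99, none of them called. Mbp and Mobp are part of the covariate, so their values in that fit are no test of them. Of 119 named calls, 34 held in all alternatives, 60 in all but the covariate and 25 ended in another. The causes were not tested. Itgav was not called in any. With 3 libraries a group and 5500545 to 12847183 counts each, genes of low level rest on few reads, and a gene with no count is limited only by the floor.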

Other observations

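Axon guidance genes, not described above, gave 2 of 25 higher and 2 lower in CD51+, near the 5.05% and 6.27% over all genes. Their median on the log2 scale was 2.08, and DESeq2 called 6 higher. Without overlap 10 of the 25 were higher and 3 lower, against 15.1% and 16.6% of all genes. Genes of the interferon response and class I MHC gave 5 of 15 lower, against 6.27% of all genes, and none higher, with a median of -3.44. Without any one of CD51+ replicates 1 to 3 or CD51- replicate 2 the count was 3. In that list H2-K1, a class I heavy chain gene, was at 1.34, 16.4 and 3.86 CPM in CD51+ and 353, 767 and 243 in CD51- (-5.97 ± 1.05; edgeR adjusted p = 0.00085), with close relatives in the genome among which reads may be split. Of 21 reactive astrocyte genes 2 were higher and 5 lower, against 5.05% and 6.27% of all genes.

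Libraries of the 2 groups separated without overlap in opposite ways in cortex and hippocampus for 53 genes (0.420%), and in the same way for 1661. No test was made of this count.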
